A study of Mus musculus with 6 samples.

Results

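Myl10, which encodes a regulatory light chain of myosin II found in precursor lymphocytes, stood at 373 FPKM in ethanol-treated and at 38.1 FPKM in 4-OHT-treated bone marrow B cells, whereas the other myosin light and heavy chain genes of these cells were partly higher and partly lower in 4-OHT. The genes described are Myl4, Myl6, Myl6b, Myl9, Myl10, Myl12a, Myl12b, Myh9 and Myh10. Members were the rows of the deposited expression table whose gene name equals 1 of these 9 symbols. By exact name 8 of the 9 had a row, of 21307 rows in all. Myl12a had none under that symbol, and its row was found under 2900073G15Rik, which RefSeq lists as its older symbol. That row is given beside the other 8 and is left out of counts by exact name.

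The set was chosen on the measured values: Myl10 was selected for its low 4-OHT value against ethanol, and the other genes were set beside it as myosin chains. Differences between the conditions are therefore a description of the members, and no test is given.

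The study treated cultured B cells from the bone marrow of 6 to 8 week old pre-tumoral mice on a mixed C57BL/6 and 129S1/SvlmJ background. All mice carried the Eµ-myc transgene (Myc under an immunoglobulin enhancer), Prmt5 alleles flanked by loxP sites (Prmt5F/F) and the tamoxifen-inducible recombinase CreER, the controls included. Cells grew with interleukin 7 (5 ng/µl) and received 4-hydroxytamoxifen (4-OHT, 50 nM), which activates the recombinase and deletes Prmt5, or ethanol alone, for 24 h. They were washed and cultured for 5 more days. The promoter that drives CreER, and whether the libraries came from separate animals, are not given in the sources used here. Each condition had 3 libraries, titled WT for ethanol and PT for 4-OHT, and the conditions are named here by the treatment in the sample characteristics. The table gives 1 FPKM value per gene and condition (mapped fragments scaled to transcript length and library size, so a level per length). No value has a replicate error, read depth is unknown, and no p-value or SD can be given.

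Differences are log2 ratios of (4-OHT FPKM + 1) over (ethanol FPKM + 1), a scale that understates the differences of genes with low values. Rows entered when neither value was 0 and their mean reached 1 FPKM, which left 10856 rows with a median of -0.07. The deleted gene Prmt5 had 41.6 FPKM in ethanol against 5.71 FPKM in 4-OHT. The labelled cell type was present in both conditions: all 20 genes of a pro-B and pre-B cell list reached 1 FPKM in ethanol and in 4-OHT. Genes of other marrow cells were present too. In ethanol 10 of 10 neutrophil markers, 11 of 11 monocyte and macrophage markers (leaving out Lyz2, a choice made after seeing the data) and 13 of 14 megakaryocyte and platelet markers reached 1 FPKM. Their summed levels were higher in 4-OHT, at 444 and 3724 FPKM, 761 and 1702 FPKM, and 253 and 949 FPKM. Lyz2, a lysozyme gene of macrophages and neutrophils, stood at 3835 FPKM in ethanol and is listed at 0 in 4-OHT. With it the monocyte and macrophage sum ran the other way, at 4595 and 1702 FPKM. The pro-B and pre-B sum was lower, at 2980.5 and 1434 FPKM.

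Myosin II is the motor that pulls actin filaments together for cell division, migration and shape change. Each motor is built from a pair of heavy chains, and each heavy chain carries an essential light chain, which stabilises its neck, and a regulatory light chain, whose phosphorylation switches the motor on. Cells other than muscle mainly use the heavy chains of Myh9 (non-muscle myosin IIA) and Myh10 (IIB), mostly with the light chains of Myl6, Myl12a, Myl12b and Myl9. Myl10, listed by RefSeq also as PLRLC, has long been known as a regulatory light chain gene of pre-B cells that responds to interleukin 7.

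The regulatory light chain genes are shown first because their coding sequences bear on how far reads can be told apart. In GENCODE M21 (GRCm38) the coding sequence of Myl12a was identical to that of Myl12b at 501 of 519 aligned bases (96.5%), with a longest identical run of 105 bases. Myl9 was identical to Myl12b at 86.3% of bases. Myl10 was the most distant, at 66.4% of 441 aligned bases against Myl12b, with a longest identical run of 27 bases. The Myl10 coding sequence used (transcript Myl10-201, 444 bases) starts where base 73 of the Myl12b coding sequence aligns. The first aligned block without gaps, 112 bases from that point, is given 5′ to 3′ for the 4 genes, with capitals at the bases that differ from Myl12b.
Myl12b: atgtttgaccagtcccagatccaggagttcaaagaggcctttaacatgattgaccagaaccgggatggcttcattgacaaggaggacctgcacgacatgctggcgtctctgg
Myl12a: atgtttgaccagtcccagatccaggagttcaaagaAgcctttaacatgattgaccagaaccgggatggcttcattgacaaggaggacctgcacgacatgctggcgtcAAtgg
Myl9: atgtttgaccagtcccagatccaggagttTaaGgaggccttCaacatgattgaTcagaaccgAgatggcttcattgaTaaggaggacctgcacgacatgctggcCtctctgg
Myl10: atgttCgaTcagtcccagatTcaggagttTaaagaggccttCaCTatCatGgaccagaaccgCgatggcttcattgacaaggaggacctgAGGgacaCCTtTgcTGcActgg
In this block Myl12a differed from Myl12b at 3 bases, Myl9 at 7 and Myl10 at 20. Reads of Myl12a and Myl12b may thus have been divided between the pair by the authors' counting, so their separate levels are uncertain. Myl10 shares no run of such length with the other 3.

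Myl10 (mm9 chromosome 5, 137169016 to 137176964) was among the abundant mRNAs of the ethanol cells. Its 373 FPKM ranked 85th of all rows in ethanol, and its 38.1 FPKM ranked 1822nd in 4-OHT. The log2 ratio was -3.26, or 9.57-fold lower in 4-OHT, and no other compared row had a lower one. In the authors' deposited table its log2 fold change is -3.29. With a pseudocount of 0.1 FPKM, or by the authors' deposited fold changes, it was the 2nd lowest. In these pooled cultures, fewer cells of a type and less RNA per cell cannot be told apart. The pro-B and pre-B marker sum was lower in the same comparison, and its part in the Myl10 difference was not tested.

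The length of the Myl10 locus in the table, 7949 bases, equals that of transcript Myl10-202 on GRCm38, so the promoter printed is the one before its start. It is shown because Myl10 had the lowest ratio of the compared rows, with the 250 bases before the start (RefSeq, GRCm38.p6, chr5:136692896-136693145, plus strand) given 5′ to 3′ and capitals at the match found.
Myl10: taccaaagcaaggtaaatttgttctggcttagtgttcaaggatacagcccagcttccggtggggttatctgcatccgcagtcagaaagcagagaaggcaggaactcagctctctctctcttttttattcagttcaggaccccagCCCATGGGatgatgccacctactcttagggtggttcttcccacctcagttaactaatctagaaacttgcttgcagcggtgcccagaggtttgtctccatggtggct
The motifs searched read the same on both strands: CCCNNGGG, the core bound by the early B-cell factor EBF1, CANNTG, the E-box of factors such as E2A, CACGTG, the E-box of MYC and MAX that is contained in the former, and TTCNNNGAA, bound by STAT5. Only CCCNNGGG was found, once, 106 bases before the start. Myl10 has 3 promoter entries in RefSeq. Of the others, the window of the start at 136693676 held a CCCNNGGG match 236 bases before it, and that of the start at 136694177 held none. Of 32851 RefSeq promoter windows of this length 11.8% held CCCNNGGG, 66.2% CANNTG, 6.02% CACGTG and 7.02% TTCNNNGAA. The window of Myl12b, a gene with a higher value in 4-OHT, held CCCNNGGG too, and those of Myl4 and Myh10 did not. A match describes the letters and is not a measured binding site. Of genes for these factors, Ebf1 had 40.5 and 18.3 FPKM in ethanol and 4-OHT (log2 ratio -1.10). Tcf3, which encodes E2A, had 120.6 and 73.2 FPKM (ratio -0.71). Stat5a (12.2 and 11.4 FPKM) and Stat5b (23.3 and 24.8 FPKM) were near equal. These factor genes are named after their values were seen, and their part in the Myl10 value was not tested.

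The other regulatory light chain genes of the set, Myl12b, Myl12a and Myl9, had higher values in 4-OHT. Myl12b (chromosome 17, 71323303 to 71339856), a broadly expressed non-muscle chain, stood at 139 and 225 FPKM in ethanol and 4-OHT, a log2 ratio of 0.69. Myl12a (71343133 to 71351873), its neighbour 3276 bases away, stood at 82.9 and 115 FPKM, a ratio of 0.47. Neither was 2-fold apart between the conditions. Myl9 (chromosome 2, 156601200 to 156607393), a chain abundant in smooth muscle and platelets, had 0.832 FPKM in ethanol against 4.80 FPKM in 4-OHT. Its log2 ratio was 1.66 and the authors' deposited table lists 2.53, a spread that reflects the pseudocount at a value this low. Beside it, the stromal and smooth muscle list (14 genes, none listed at 0, 9 with a mean of at least 1 FPKM) summed to 27.1 and 368 FPKM in ethanol and 4-OHT. Most of the 4-OHT sum came from the collagen genes Col1a1 (6.91 and 127 FPKM), Col3a1 (4.55 and 108 FPKM) and Col1a2 (6.38 and 88.3 FPKM). The smooth muscle genes were far lower, such as Acta2 (2.90 and 12.8 FPKM), Tagln (1.76 and 5.82 FPKM) and Myh11 (0.0557 and 0.148 FPKM). The genes of this list are named after their values were seen. The megakaryocyte and platelet list (14 genes, none at 0) summed to 253 and 949 FPKM. The part of such cells in the Myl9 value was not tested.

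**Figure D1:**
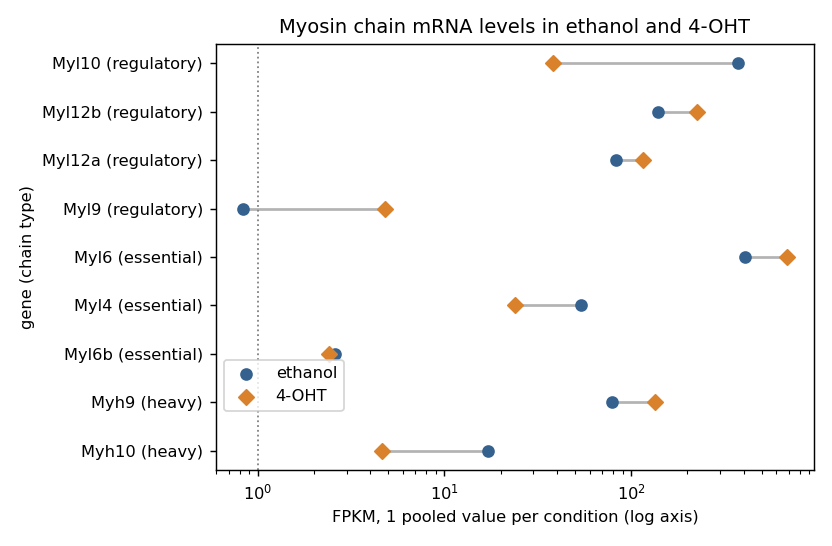
Level of each myosin gene in FPKM (log axis), with 1 pooled value for ethanol (circle) and 1 for 4-OHT (diamond) and no error bar because the table gives none; the dotted line marks 1 FPKM. Myl10 runs from 373 down to 38.1 FPKM, Myh10 and Myl4 are also lower in 4-OHT, and Myl6b is nearly level.

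Essential light chain genes were divided in direction. Myl6 (chromosome 10, 127927917 to 127930881), the main essential chain outside striated muscle, stood at 406 and 686 FPKM in ethanol and 4-OHT (log2 ratio 0.76). These were the highest values of the set in each condition. In ethanol Myl10 was close, at 373 FPKM, and without a replicate spread Myl6 and Myl10 cannot be put in order there. Myl6b, whose locus is separated from that of Myl6 by 331 bases and which encodes a related chain, stood at 2.59 and 2.42 FPKM, a ratio of -0.07. These adjoining genes thus lay far apart in level, and Myl6b was near equal between conditions (ratio -0.32 under quantile normalization). Myl4 (chromosome 11, 104411977 to 104448533), known as the essential chain of the atrium and of fetal muscle, was well above Myl6b, with 53.6 FPKM in ethanol against 23.8 FPKM in 4-OHT. Its log2 ratio was -1.14, or 2.20-fold lower. Muscle and red cell precursors also use Myl4. The striated muscle list (14 genes, Mb listed at 0 in ethanol) summed to 7.96 and 8.27 FPKM in ethanol and 4-OHT, and the erythroid list (10 genes, Car1 listed at 0 in both) to 12.4 and 15.5 FPKM, with the list's globin genes Hbb-b1 and Hba-a1 not analysed here. Within these lists Tnnt2, a troponin gene of the heart, was lower in 4-OHT, at 1.85 and 0.489 FPKM. The compared erythroid genes went both ways. Car2, with the highest mean of them, was lower, at 9.70 and 5.31 FPKM, while Gata1 (1.67 and 7.46 FPKM) and Epor (0.466 and 2.13 FPKM) were higher. These genes are named after their values were seen. The part of such cells in the Myl4 value was not tested.

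The heavy chain genes had opposite differences. Myh9 (chromosome 15, 77591019 to 77672545) had 79.1 and 134 FPKM in ethanol and 4-OHT, a log2 ratio of 0.76. Myh10 (chromosome 11, 68505417 to 68630126) stood at 17.0 and 4.66 FPKM, a ratio of -1.67 or 3.19-fold lower, and ranked 32nd from the lowest of all compared rows. The ratio of Myh9 lay with those of Myl6 and Myl12b, which ran from 0.69 to 0.76. Macrophages, neutrophils and platelets are known to contain much non-muscle myosin IIA. The monocyte and macrophage markers (11 genes, without Lyz2) summed to 761 and 1702 FPKM and the neutrophil markers (10 genes) to 444 and 3724 FPKM, and their part in the values of Myh9, Myl6 and Myl12b was not tested.

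Of the 8 members by exact name, 3 (Myl10, Myh10 and Myl4) were at least 2-fold lower in 4-OHT and 1 (Myl9) at least 2-fold higher. Of all compared rows, 2.58% were at least 2-fold lower and 10.4% at least 2-fold higher. The members were picked by this contrast, so nothing is read from the counts. In direction, 4 of the 8 were higher and 4 lower, beside 4875 and 5981 of all compared rows. The median of the other 7 was 0.69, and the difference of Myl10 from it was -3.95 log2 units. Without a replicate spread, neighbours in level such as Myl12a and Myh9 in ethanol (82.9 and 79.1 FPKM) cannot be put in order.

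**Figure D2:**
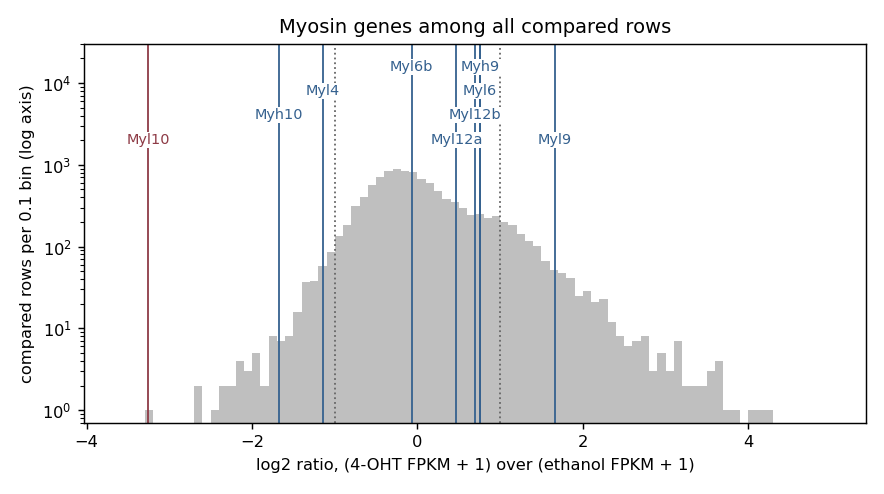
Number of compared rows (log axis) per 0.1 bin of the log2 ratio of (4-OHT FPKM + 1) over (ethanol FPKM + 1), with a line at each myosin gene and dotted lines at 2-fold. Myl10 stands at -3.26, alone at the low end, and Myl12a, Myl12b, Myl6 and Myh9 lie together between 0.47 and 0.76.

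Because FPKM is a level per transcript length, the genes of each chain type can be summed and their shares compared, as mRNA and not as protein. The regulatory light chain genes of the set summed to 596 and 384 FPKM in ethanol and 4-OHT. Myl10 made up 62.6% of that sum in ethanol and 9.92% in 4-OHT. Myl12b made up 23.4% and 58.8%, Myl12a 13.9% and 30.1%, and Myl9 0.140% and 1.25%. The most abundant regulatory chain was thus Myl10 in ethanol and Myl12b in 4-OHT. Without Myl12a, the share of Myl10 was 72.7% and 14.2%.

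The other chain types showed shifts of the same form at smaller shares. Myl4 made up 11.6% of the essential light chain sum in ethanol and 3.34% in 4-OHT, and Myh10 17.7% and 3.35% of the heavy chain sum. Sums of essential chains were 462 and 712 FPKM, 1.54-fold higher in 4-OHT as a plain ratio, and of heavy chains 96.1 and 139 FPKM, 1.45-fold higher. The regulatory chains other than Myl10 summed to 223 and 346 FPKM, 1.55-fold higher. With Myl10 the regulatory sum was lower, at 0.644 of its ethanol value. These 4 sums kept their direction under median-of-ratios scaling and quantile normalization.

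**Figure D3:**
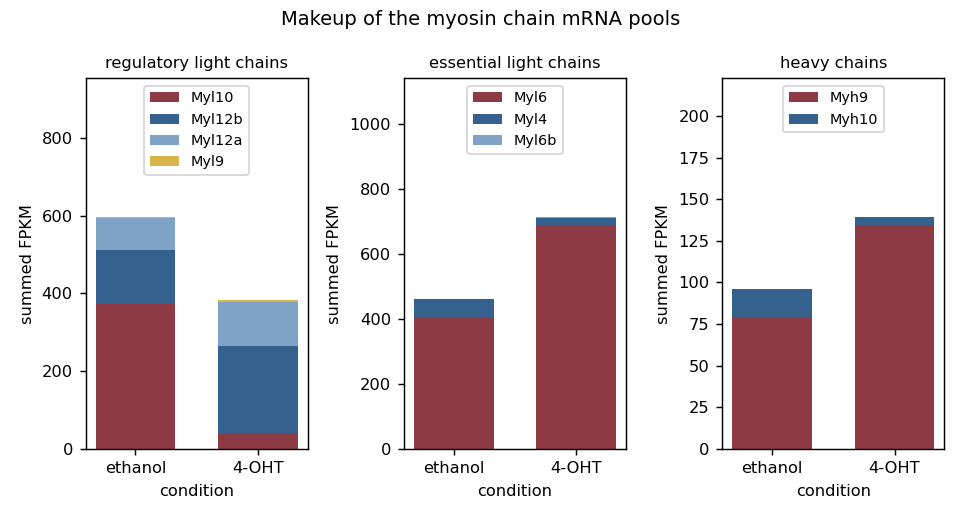
Summed FPKM of the regulatory light chain, essential light chain and heavy chain genes in ethanol and 4-OHT, with bars from 0 divided by gene, no error bar because each condition has 1 pooled value, and a separate axis range in each panel. The Myl10 section is 62.6% of the regulatory chains in ethanol and 9.92% in 4-OHT, while the sums of the other chain types are taller in 4-OHT.

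The remaining class II myosins were barely present. All 12 other heavy chain genes of the class, those of striated and smooth muscle included, were under a mean of 1 FPKM and summed to 0.0967 and 0.234 FPKM in ethanol and 4-OHT. Of 5 other light chain genes, only Mylpf, a regulatory chain of fast skeletal muscle, passed that mean, at 3.31 and 1.42 FPKM (log2 ratio -0.83). Among 24 unconventional myosin genes, which encode motors that move membranes and cargo, 14 were compared. Of these, 11 had higher and 3 lower values in 4-OHT. At least 2-fold higher were 5 and at least 2-fold lower none, beside 10.4% and 2.58% of all compared rows. The median of the 14 was 0.57. With no filter, which brings in genes near 0, the median was 0.17. Myo1f, a class I myosin of myeloid cells, stood at 30.8 and 82.2 FPKM and Myo1g, a class I myosin of blood cells, at 37.0 and 61.7 FPKM. The lower ones were Myo1c, Myo7a and Myo19, the last a mitochondrial myosin at 5.07 and 2.63 FPKM, and they are named after their values were seen.

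Genes that set the phosphorylation of the regulatory light chain had values in both directions. Of 10 compared kinase genes 7 had higher and 3 lower values in 4-OHT. At least 2-fold higher were 3 and at least 2-fold lower none, beside 10.4% and 2.58% of all compared rows. The median of the 10 was 0.11. That median lay on the other side of 0 under quantile normalization and when the minimum was raised to 5 FPKM. Dapk3 stood at 17.1 and 18.4 FPKM. Lower in 4-OHT were Rock1 (18.9 and 16.4 FPKM), Rock2 (15.2 and 13.5 FPKM) and Cit (7.07 and 5.63 FPKM). Of these, Rock2 and Cit are named after their values were seen. Mylk, the dedicated light chain kinase gene, was low, at 0.287 and 2.44 FPKM, and Cdc42bpb stood at 2.92 and 8.51 FPKM. In the myosin phosphatase list 3 of 5 compared genes had higher and 2 lower values, with a median of 0.03 that changed sign under those settings and under median-of-ratios scaling. Its abundant members were lower: Ppp1r14b, a phosphatase inhibitor gene, stood at 158 and 94.4 FPKM and the catalytic subunit gene Ppp1cb at 93.5 and 62.7 FPKM.

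The actin filament genes had more higher than lower values. In the actin filament list 19 of 20 compared genes had higher values in 4-OHT, and the list median was 1.11. At least 2-fold higher were 10 of them and at least 2-fold lower none, beside 10.4% and 2.58% of all compared rows. Actb stood at 1264 and 1768 FPKM and Cfl1, the gene of the filament-severing protein cofilin, at 715 and 875 FPKM. The highest ratios were those of Cald1 (1.29 and 9.83 FPKM), which encodes caldesmon, and Cnn2 (20.1 and 76.5 FPKM), which encodes a calponin. In the other direction lay Cnn3, at 19.3 and 15.3 FPKM. With a minimum of 5 FPKM the median of the list was 0.79, and with no filter 0.69. Among the genes at least 2-fold higher, Acta2 and Tagln are also in the stromal and smooth muscle list. The part of other marrow cells in the actin filament values was not tested.

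**Figure D4:**
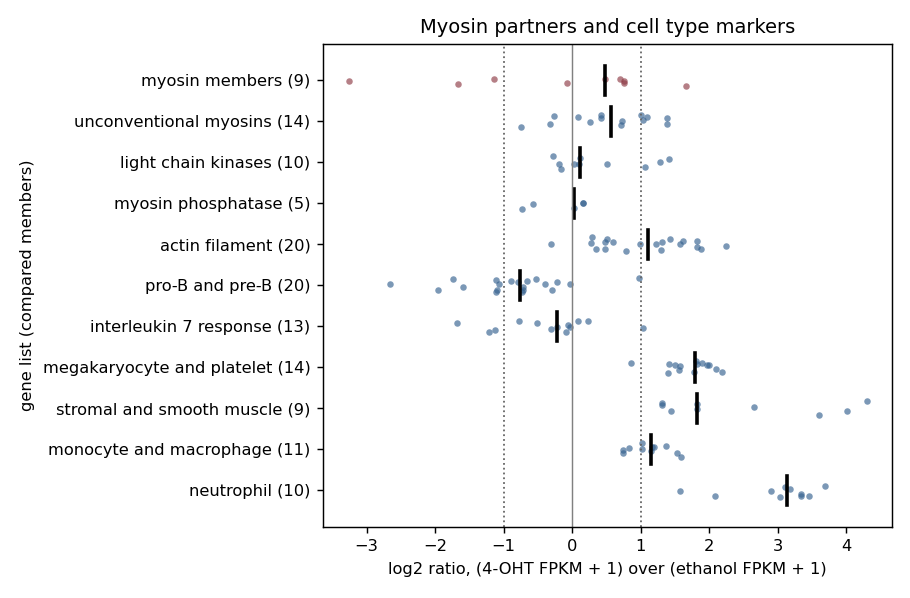
Log2 ratio of (4-OHT FPKM + 1) over (ethanol FPKM + 1) for each compared gene of the myosin set, its partner lists and marker lists of marrow cells, with 1 point per gene, a black bar at each list's median and dotted lines at 2-fold. The myosin genes spread from -3.26 to 1.66, the actin filament list has its median at 1.11 and the pro-B and pre-B list at -0.77.

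The rows nearest to Myl10 in log2 ratio, over these 2 conditions and among the 8129 rows whose mean reached 5 FPKM, were Prmt5 (-2.67), Vpreb2 (-2.67), Gldc (-2.45), Bhlha15 (-2.37) and H19 (-2.35). The nearest lay 0.59 log2 units away on the scale with 1 FPKM added. Myl10 was chosen for this contrast, so nothing is read from that gap. Vpreb2, a surrogate light chain gene of the pre-B cell receptor, resembled Myl10 in level as well, at 272 and 42.0 FPKM. In the pro-B and pre-B list 19 of 20 genes were lower in 4-OHT and 8 at least 2-fold (2.58% of all compared rows), with a median of -0.77. As Myl10 had the lowest ratio of all compared rows, its place below each gene of the list was fixed in advance. Vpreb1, the other surrogate chain gene of that kind, stood at 180.5 and 45.7 FPKM (ratio -1.96), and reads of Vpreb1 and Vpreb2, near-identical copies, may have been divided between them.

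Of the 13 genes of the interleukin 7 response list, 10 were lower and 3 higher in 4-OHT, with a median of -0.22. At least 2-fold lower were 3 of them and at least 2-fold higher 1, beside 2.58% and 10.4% of all compared rows. The receptor gene Il7r itself stood at 77.6 and 66.7 FPKM, a ratio of -0.22. The feedback inhibitor genes Socs2 (64.9 and 19.5 FPKM) and Socs1 (31.4 and 12.9 FPKM) had ratios of -1.68 and -1.22, and the abundant cyclin gene Ccnd3 one of -0.31. Socs3, another inhibitor gene of the family, lay the other way, at 7.72 and 16.9 FPKM (ratio 1.04), and is named after its values were seen. That every gene of this list lay above Myl10 in ratio was likewise fixed by the choice of Myl10.

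Genes beside the lower members on the chromosome did not share 1 direction. Within 200000 bases of Myl10 the table has 3 other rows and only Cux1, a homeobox factor gene 125715 bases away, was compared, at 79.8 and 37.3 FPKM (log2 ratio -1.07). Around Myl4, 3 rows were compared, with ratios from -0.41 for Cdc27, whose locus ends 43 bases before, to 1.97 for Itgb3, a platelet integrin gene. Around Myh10, 7 rows were compared, with ratios from -0.83 to 1.09 and a median of -0.33.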

How the data were processed

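RNA of 6 mouse B-cell libraries (3 ethanol, 3 4-OHT) was sequenced. The authors computed the FPKM values, 1 per gene and condition. CASAVA, TopHat2 2.0.9, Cufflinks 2.1.1 and build mm9 are named by the submitters' processing notes, which leave how the libraries were combined unstated. The deposited log2 fold changes matched log2(4-OHT/ethanol) within 0.01 in all 15756 rows above 0 in both conditions. The ratio here adds 1 FPKM and keeps rows without a 0 whose mean reaches 1 FPKM. No test across libraries was possible, so genes are described by size, with 2-fold as the mark, and lists by counts and medians. Members, the 17 gene lists and the alternatives were chosen with earlier results of these data known. Named genes were the members, Prmt5, the 2 most abundant and the 2 with the largest ratios of each list, and the 5 rows nearest Myl10; others were named after their values were seen. Some genes that this rule names, and a list, are not reported here. Table starts count from 0, as 6341 locus lengths against 437 show, so 1 was added. Coding sequences came from GENCODE M21 and promoters from RefSeq, both on GRCm38, with no coordinates moved between builds. Python 3.11.15, numpy 2.4.6, pandas 2.3.3, Biopython 1.88 and matplotlib 3.10.9 were used, and the ratios were tested on simulated data.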

Additional observations from a re-analysis of the deposited data

How the results depend on the processing

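Each member kept its direction and its side of 2-fold under every alternative in which it was compared, with log2 ratios of -3.32 to -3.26 for Myl10, -1.87 to -1.67 for Myh10, -1.20 to -1.11 for Myl4 and 1.43 to 2.53 for Myl9. With a minimum of 5 FPKM Myl9 and Myl6b dropped out of the comparison, so 0 members were at least 2-fold higher. The difference of Myl10 from the median of the other members ran from -3.99 to -3.93. Under that minimum 700 of all rows were at least 2-fold higher, and the medians were -0.030 for kinases, -0.21 for phosphatase, 0.79 for actin filament and -0.28 for T and natural killer cells. The main medians of the last list and of the erythroid and striated muscle lists were 0.63, 1.09 and 0.10. Under quantile normalization the medians were -0.013 for kinases, -0.27 for phosphatase, -0.090 for striated muscle and 0.80 for erythroid, and under median-of-ratios scaling -0.0093 for phosphatase. With no filter they were 0.69 for actin filament, 0.17 for unconventional myosins (against 0.57) and 0.027 for erythroid. By a pseudocount of 0.1, and by fold changes as the authors deposited them, 457 and 482 of all rows were at least 2-fold lower, against 280, the T and natural killer median was 1.07 and 1.16, and the erythroid median 1.98 and 2.16. The cause of these shifts was not tested beyond what each setting leaves out. With no filter, rows listed at 0 in 4-OHT entered and Myl10 was the 7th lowest. The sums by chain type under other scalings, and without Myl10 or Myl12a, were chosen after seeing the data. No paired analysis was possible because each condition has a single pooled column, and no library could be left out. Depth cannot be read from FPKM, and low values such as Myl9 carry the least precision.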
